A study of Mus musculus with 2 samples.

Results

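The triad is the junction in a skeletal muscle fibre where a transverse tubule, an inward fold of the surface membrane, meets the calcium store on either side of it. The 9 genes described here encode its core: Ryr1, Cacna1s, Cacnb1, Cacng1, Stac3, Jph1, Jph2, Trdn and Bin1. They were chosen by name, as known parts of excitation-contraction coupling, from 21829 protein-coding genes of the mouse annotation GENCODE M21, and all 9 were found in it. For each gene the locus was its body plus 20 kb on each side, and every open chromatin peak and every footprint in that locus was collected.

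The data are DNase-seq, which finds open chromatin by cutting nuclei with the enzyme DNase I. Both samples come from the gastrocnemius, the large calf muscle, of adult male mice of the F1 hybrid strain B6CASTF1/J, 18 to 20 months old. They are biological replicates 1 and 2 of a single group with no control, no other age and no other tissue, so nothing could be tested between conditions and each value is given per replicate. The labels give both the same donor and separate biosamples, so their spread may be technical. The hybrid carries a B6 and a CAST chromosome of each pair, which the deposited files do not separate.

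When a motor neuron fires, the action potential runs into the transverse tubules, and a voltage sensor there pulls open the release channel of the calcium store by direct contact. The released calcium starts contraction. Ryr1 is the release channel, Cacna1s is the voltage-sensing pore subunit, Cacnb1 and Cacng1 are its auxiliary subunits, Stac3 is an adaptor that the coupling needs, junctophilins Jph1 and Jph2 tether the membranes, Trdn anchors the channel complex inside the store, and Bin1 shapes the tubule membrane. Mutations in several of these genes cause muscle disease in people.

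Each replicate has an inclusive peak list, with 131398 peaks in replicate 1 and 91567 in replicate 2, and 339656 and 234091 footprints, short stretches inside open chromatin that DNase I cut less than their surroundings. Peak signal is in the authors' own unit, whose scale and read depth are not given, and its median over all peaks was 0.599 in replicate 1 and 0.760 in replicate 2. The tissue label was checked by promoter peaks. All 10 skeletal fibre markers (such as Acta1 and Ckm) had a promoter peak in both replicates, against 2 of 7 heart markers, 4 of 5 endothelial, 5 of 5 fibroblast, 3 of 4 smooth muscle, 2 of 5 macrophage and 3 of 5 neuronal markers. The same held for 62.4 percent of all protein-coding genes. Among genes whose promoters are poor in CpG, as those of most markers are, it held for 37.2 percent. In lists this short, counts near these shares do not set a cell type apart. In whole tissue, fewer cells of a type and less signal per cell cannot be told apart.

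All 9 triad genes had a peak within 1 kb of a protein-coding start site in both replicates, as did 62.4 percent of all protein-coding genes. Promoters differ in CpG content, and CpG-rich ones are open in most tissues, so the count was also split by that class, a split chosen after the values were seen. Ryr1, Cacna1s, Cacng1, Stac3, Jph2 and Trdn have CpG-poor promoters, and all 6 were open in both replicates, against 37.2 percent of the 11990 CpG-poor genes. Cacnb1, Jph1 and Bin1 have CpG-rich promoters, and all 3 were open, against 93.2 percent of the 9839 CpG-rich genes. With the strict peak list 7 of 9 triad genes remained open, without Stac3 and Trdn, against 57.7 percent of all genes. Both lost genes have CpG-poor promoters, and 31.6 percent of all CpG-poor genes were open with that list. Trdn alone was lost when the stronger 50 percent of peaks, or the 5′-most start site of each gene, was used. Of all genes, 55.5 percent and 59.1 percent were open with these settings.

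Open did not mean strong. The strongest promoter peak of the triad genes had a median signal of 2.10 in replicate 1 and 1.71 in replicate 2, while all open promoters had medians of 3.16 and 3.41. Jph1 and Bin1 were the only members above that median within the 1 kb window. A Cacna1s peak 1.1 kb upstream, just outside the window in replicate 1, had 3.19 there and would have been above it. Among the 6 CpG-poor members the medians were 1.99 and 1.56, above the 1.68 and below the 1.89 of all open CpG-poor promoters. From high to low by the mean of both replicates, the promoters were those of Bin1 (5.03 ± 0.242, SD, n = 2), Jph1 (3.65 ± 0.00304), Ryr1 (2.71 ± 0.575), Jph2 (2.59 ± 0.305), Cacna1s (1.91 ± 0.276), Cacng1 (1.64 ± 0.332), Cacnb1 (1.35 ± 0.111), Stac3 (1.25 ± 0.212) and Trdn (0.688 ± 0.190). The replicate ranges of Ryr1 and Jph2 overlapped, as did those of each neighbouring pair from Cacna1s through Cacng1 and Cacnb1 to Stac3. Bin1, Jph1 and Trdn stood apart from their neighbours in that order. The value of Cacna1s in replicate 2 is that of a peak shared with the neighbouring gene Ascl5, and its start-site peak had 1.68. The values of Cacnb1 come from different peaks in the replicates, so its SD is not the spread of 1 peak.

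**Figure D1:**
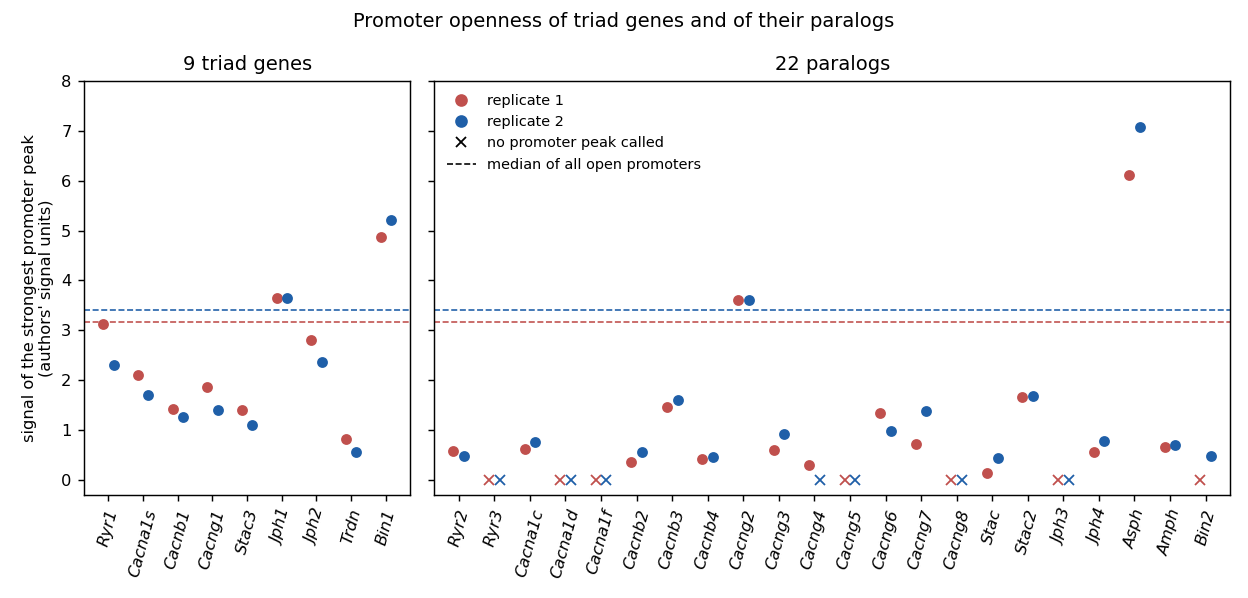
Signal of the strongest peak within 1 kb of a protein-coding start site, in the authors' units, for the 9 triad genes (left) and 22 paralogs (right), 1 point per replicate; crosses mark genes with no promoter peak, dashed lines the median of all open promoters in the replicate of that colour. Every triad gene has a point in both replicates, and Jph1 and Bin1 are the triad genes above the lines within that window. Of the paralogs, 6 have no promoter peak in either replicate, beside 7242 of all 21829 genes.

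Ryr1 (ENSMUSG00000030592.18, chr7:29003344-29125179 on mm10, minus strand) encodes the calcium release channel, one of the largest proteins of the fibre. Its promoter peak reached 3.12 in replicate 1 and 2.30 in replicate 2. Openness at the 5′ end was spread over 3 separate regions: the start site itself, a 720-bp stretch inside the gene, centred 1.1 kb past the start (2.98 and 1.90), and a 200-bp peak 1.6 kb upstream (3.08 and 2.76). The last of these was the strongest of the whole locus by the mean of both replicates. The rest of the long gene was mostly closed: only introns 84 and 87, far towards the 3′ end, held further regions called in both replicates.

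Intron 84 had 2.62 in replicate 1 and 2.30 in replicate 2, and intron 87 had 2.03 and 2.50. In replicate 1 both were below the promoter, while in replicate 2 the first was level with it and the second above it. Intron 87 was one of the 2 shared regions of the Ryr1 locus with a lower signal in replicate 1. Of the 16 regions of the locus, 6 were called in both replicates, 7 in replicate 1 alone and 3 in replicate 2 alone. The sequences below were read from the GRCm38.p6 assembly, the reference behind mm10, 5′ to 3′ on the strand of the gene. Capitals mark bases inside footprints of both replicates. The first is the promoter peak up to the base before the start site (chr7:29125152-29125300), and both of its GGGCGG matches, the SP/KLF motif on either strand, lie in capitals. The second is the strongest region of the locus (chr7:29126621-29126820), with 77 bases in footprints of both replicates and none of the motifs searched for. The third is the intron 87 region (chr7:29039701-29039880), where a match to the CTCF motif lies in capitals. A CAGGTG match lies wholly within that CTCF match, so the 2 are not separate sites.
Ryr1 promoter: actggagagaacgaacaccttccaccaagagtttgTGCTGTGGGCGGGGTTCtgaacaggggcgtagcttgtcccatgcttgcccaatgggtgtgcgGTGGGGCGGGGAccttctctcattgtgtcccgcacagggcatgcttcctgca
Ryr1 upstream: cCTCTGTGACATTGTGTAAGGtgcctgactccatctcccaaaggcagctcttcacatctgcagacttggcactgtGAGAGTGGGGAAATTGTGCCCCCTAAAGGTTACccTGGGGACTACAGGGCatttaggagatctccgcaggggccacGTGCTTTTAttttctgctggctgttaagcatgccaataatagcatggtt
Ryr1 intron 87: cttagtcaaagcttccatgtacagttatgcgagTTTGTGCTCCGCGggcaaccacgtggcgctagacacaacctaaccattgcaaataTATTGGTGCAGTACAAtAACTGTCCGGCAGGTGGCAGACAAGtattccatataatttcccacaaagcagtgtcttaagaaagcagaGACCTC

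Cacna1s (ENSMUSG00000026407.17, chr1:136052750-136119822, plus strand) encodes the pore and voltage sensor that opens Ryr1. The peak over its start site had 2.10 in replicate 1 and 1.68 in replicate 2. A peak 1.1 kb upstream was stronger in both, with 3.19 and 1.71, and lies within 1 kb of a start site of the neighbouring gene Ascl5 as well, so it cannot be given to Cacna1s alone. The peaks of this locus repeated well: all 17 peaks of replicate 2 were also found in replicate 1, and 4 regions were seen in replicate 1 alone. An internal start site, that of transcript Cacna1s-206, had no peak within 1 kb in either replicate.

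Intron 2 of Cacna1s held a cluster of 5 shared regions between 8.4 and 15.0 kb past the start. The strongest by the mean of both replicates, 14.1 kb in, had 2.72 in replicate 1 and 1.57 in replicate 2, above the start-site peak in replicate 1 and below it in replicate 2. The other 4 had between 0.624 and 1.91 in replicate 1 and between 0.470 and 1.63 in replicate 2. Further shared regions lay in introns 7, 9, 16, 29 and 40 and across the last exon, exon 44 (2.15 and 1.60), where the peak overlaps coding bases. The strongest shared region of the locus by mean, 2.53 and 2.86, was the promoter of the neighbour Kif21b.

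The Cacna1s promoter peak up to the start site (chr1:136052601-136052749, plus strand) is shown because it pairs a CAGCTG match, the E-box form favoured by the myogenic factors of the MyoD family, with a CATTCC match (the MCAT motif of TEAD factors). Neither lies in a footprint of both replicates.
Cacna1s promoter: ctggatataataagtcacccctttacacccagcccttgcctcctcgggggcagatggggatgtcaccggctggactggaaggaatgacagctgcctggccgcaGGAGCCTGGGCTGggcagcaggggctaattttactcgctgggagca

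Cacnb1 (ENSMUSG00000020882.17, chr11:98001508-98023034, minus strand) encodes the beta subunit that carries the sensor to the tubule membrane. Its 5′-most start sites lay in a broad but weak open region of 795 bp, merged from several peaks, the strongest with 0.741 in replicate 1 and 0.855 in replicate 2. The peak over the start sites themselves had 0.675 in replicate 1, and in replicate 2 no peak covered them. The stronger promoter peaks lay 3.2 kb (1.43 and 1.14) and 4.3 kb (1.40 and 1.27) inside the gene, where transcript Cacnb1-204 starts. Exons 3, 12 and 14 each held a shared region, with 1.98 and 1.34, 1.84 and 1.47, and 1.86 and 1.70 in replicates 1 and 2. Exon 14 is the last, and its region touches no coding base.

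The strongest peaks of the Cacnb1 locus belong to its surroundings. A trio downstream had 4.42, 4.70 and 3.31 in replicate 1 and 5.12, 6.72 and 4.13 in replicate 2. The promoter of Rpl19, a ribosomal protein gene 4.1 kb upstream, had 4.42 and 3.997. Of the 20 peaks of replicate 1 and 19 of replicate 2, only 9 and 8 lay inside Cacnb1 or nearest to its start sites, so the high peak density of this gene-rich locus is largely that of its neighbours. The middle peak of the trio (chr11:97988221-97988440, on the minus strand of Cacnb1) is shown as the strongest shared region near any member by the mean of both replicates. It has 88 of its 220 bases in footprints of both replicates and no match to the motifs searched for. Only start sites of protein-coding genes were considered, so whether it holds a gene of another kind was not looked at.
Cacnb1 downstream: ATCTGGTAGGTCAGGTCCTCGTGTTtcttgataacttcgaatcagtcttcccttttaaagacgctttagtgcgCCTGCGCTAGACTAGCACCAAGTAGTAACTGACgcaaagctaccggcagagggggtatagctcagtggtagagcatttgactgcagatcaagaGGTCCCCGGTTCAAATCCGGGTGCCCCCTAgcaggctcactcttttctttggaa

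Cacng1 (ENSMUSG00000020722.5, chr11:107703218-107716522, minus strand) encodes the gamma subunit, a small membrane protein of the sensor. Its single start site was covered by a peak of 1.87 in replicate 1 and 1.40 in replicate 2. A region in intron 1, 1.9 kb past the start, was stronger in both, with 2.23 and 1.57, and so was one 14.6 kb upstream, with 1.99 and 1.48. The locus held 9 and 7 peaks, of which 5 in each replicate were shared. The upstream part of the start-site peak (chr11:107716523-107716700, minus strand) carries a CAGCTG match and a TCAGGTT match (the MEF3 motif), both outside the capitals.
Cacng1 promoter: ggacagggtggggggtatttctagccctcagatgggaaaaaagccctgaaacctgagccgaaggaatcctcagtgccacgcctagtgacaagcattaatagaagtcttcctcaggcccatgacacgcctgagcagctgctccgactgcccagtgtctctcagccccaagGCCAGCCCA

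Stac3 (ENSMUSG00000040287.9, chr10:127501686-127508823, plus strand), the adaptor that links sensor and release channel, is the shortest of the 9 genes. All 3 of its start sites fell in 1 peak, with 1.40 in replicate 1 and 1.10 in replicate 2. That peak was not among the 3 strongest of its locus. A region 11.3 kb past the start, beyond the gene, had 4.79 and 5.62. One just past the 3′ end, at 7.5 kb, had 2.47 and 2.49, and the promoter of Shmt2 had 2.50 and 2.24. The last exon held a further shared region of 1.45 and 1.32.

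The region at 11.3 kb (chr10:127512921-127513120, plus strand) is printed for its footprints: 91 of its 200 bases lie in footprints of both replicates, the most of any sequence shown here, and they hold a full CTCF motif match. The region at 7.5 kb has a CTCF match inside footprints of both replicates too.
Stac3 downstream: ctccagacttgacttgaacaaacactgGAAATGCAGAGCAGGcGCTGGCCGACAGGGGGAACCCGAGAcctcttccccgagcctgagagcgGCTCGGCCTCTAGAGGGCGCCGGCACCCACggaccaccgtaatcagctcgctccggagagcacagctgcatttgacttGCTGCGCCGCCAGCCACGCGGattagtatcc

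Jph1 (ENSMUSG00000042686.5, chr1:16964560-17097889, minus strand) encodes the main junctophilin of skeletal muscle, which spans the gap between tubule and store. Its promoter was the second strongest of the 9 and the most even, with 3.66 in replicate 1 and 3.65 in replicate 2. A second peak, 1.0 kb inside the gene, had 3.17 and 2.82. All 11 peaks of replicate 2 were found again in replicate 1, which had 7 more regions of its own. Away from the 5′ end, the openness of Jph1 was concentrated in intron 2 and in the last exon, exon 5, where 3 shared regions touch no coding base and the strongest had 2.65 and 1.78.

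Jph2 (ENSMUSG00000017817.11, chr2:163336242-163397993, minus strand) is the junctophilin that heart and skeletal muscle share. Its promoter had 2.80 in replicate 1 and 2.37 in replicate 2, and a region 3.4 kb upstream was as open, with 2.78 and 2.20. The gene body held 9 shared intronic regions, 5 in intron 2, 3 in intron 3 and 1 in intron 4, none above 2.01 in either replicate. A MEF2 match was present in 3 of the 9, the most in any locus. All but 1 of the 12 peaks of replicate 2 were called in replicate 1.

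The upstream Jph2 region (chr2:163401301-163401520, minus strand) had 5 footprints in each replicate, and 84 of its 220 bases lie in footprints of both. It has 2 CAGCTG matches, of which 1 lies wholly in capitals, the only such case in the shared regions of the triad loci. Over all 74212 regions called in both replicates, 2.01 percent had a CAGCTG match so placed. The Jph2 promoter peak up to the start site (chr2:163397994-163398240) has a CAGCTG match that only touches the capitals and a GGGCGG match inside them.
Jph2 upstream: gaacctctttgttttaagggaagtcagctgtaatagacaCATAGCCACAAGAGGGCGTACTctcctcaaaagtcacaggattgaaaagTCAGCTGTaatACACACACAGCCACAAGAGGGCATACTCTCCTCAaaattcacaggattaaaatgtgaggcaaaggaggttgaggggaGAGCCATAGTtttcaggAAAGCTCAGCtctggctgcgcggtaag
Jph2 promoter: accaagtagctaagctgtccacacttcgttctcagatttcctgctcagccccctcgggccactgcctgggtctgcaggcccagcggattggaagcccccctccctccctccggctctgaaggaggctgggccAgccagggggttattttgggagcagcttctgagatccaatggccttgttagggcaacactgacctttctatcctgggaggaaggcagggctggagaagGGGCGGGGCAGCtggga

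Trdn (ENSMUSG00000019787.9, chr10:33080554-33476709, plus strand) encodes triadin, which binds Ryr1 from the store side. It is the longest of the 9 genes at 396 kb, and the weakest: its promoter peak had 0.822 in replicate 1 and 0.553 in replicate 2. That placed it at the 63rd percentile of all peaks in replicate 1 and the 34th in replicate 2. The peak covers the start sites of transcripts Trdn-206 and Trdn-207 in both replicates. It also covers those of Trdn-201, Trdn-202 and Trdn-203 in replicate 2, and lies within 1 kb of them in replicate 1. Trdn-208, upstream, and Trdn-205, far inside the gene, had no peak within 1 kb in either replicate. The strongest region was in intron 5, 99.4 kb past the first start, with 1.82 and 0.911. Trdn also differed most between replicates in count, with 17 peaks in replicate 1 and 6 in replicate 2, and 11 regions called in replicate 1 alone had a median signal of 0.426.

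Bin1 (ENSMUSG00000024381.16, chr18:32377230-32435737, plus strand) encodes amphiphysin 2, which bends membrane into tubules. Its promoter was the strongest, with 4.86 in replicate 1 and 5.21 in replicate 2. The next strongest region, 3.3 kb into intron 1, had 4.31 and 2.80 and a CArG match, the motif of serum response factor. Intron 6 held 3 shared regions, with up to 2.46 and 2.00. An internal start site had a weak peak of 0.761 in replicate 1 alone.

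Bin1 was the one locus with many regions on either side that the other replicate lacked: 12 were shared, 16 were called in replicate 1 alone and 18 in replicate 2 alone. The kinds differed in strength and place. Those of replicate 1 had a median signal of 0.860 and were scattered from 0.8 to 38.9 kb past the start. The exceptions lay outside the gene, 4.7 kb upstream and 67.2 kb past the start. Those of replicate 2 had a median of 0.277 and mostly ran together: 9 lay within 6.68 kb across introns 10 and 11 to exon 12 (chr18:32425461-32432140), and 6 within 4.23 kb just past the 3′ end (chr18:32436711-32440944), with no signal above 0.486. Weak as they were, all regions of both runs are in the strict list of replicate 2. Bases of the Bin1 locus at a false discovery rate of 0.05 came to 9.42 kb in replicate 1 and 14.2 kb in replicate 2, and at 0.001 to 6.11 and 11.2 kb. The cause of these runs was not tested.

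**Figure D2:**
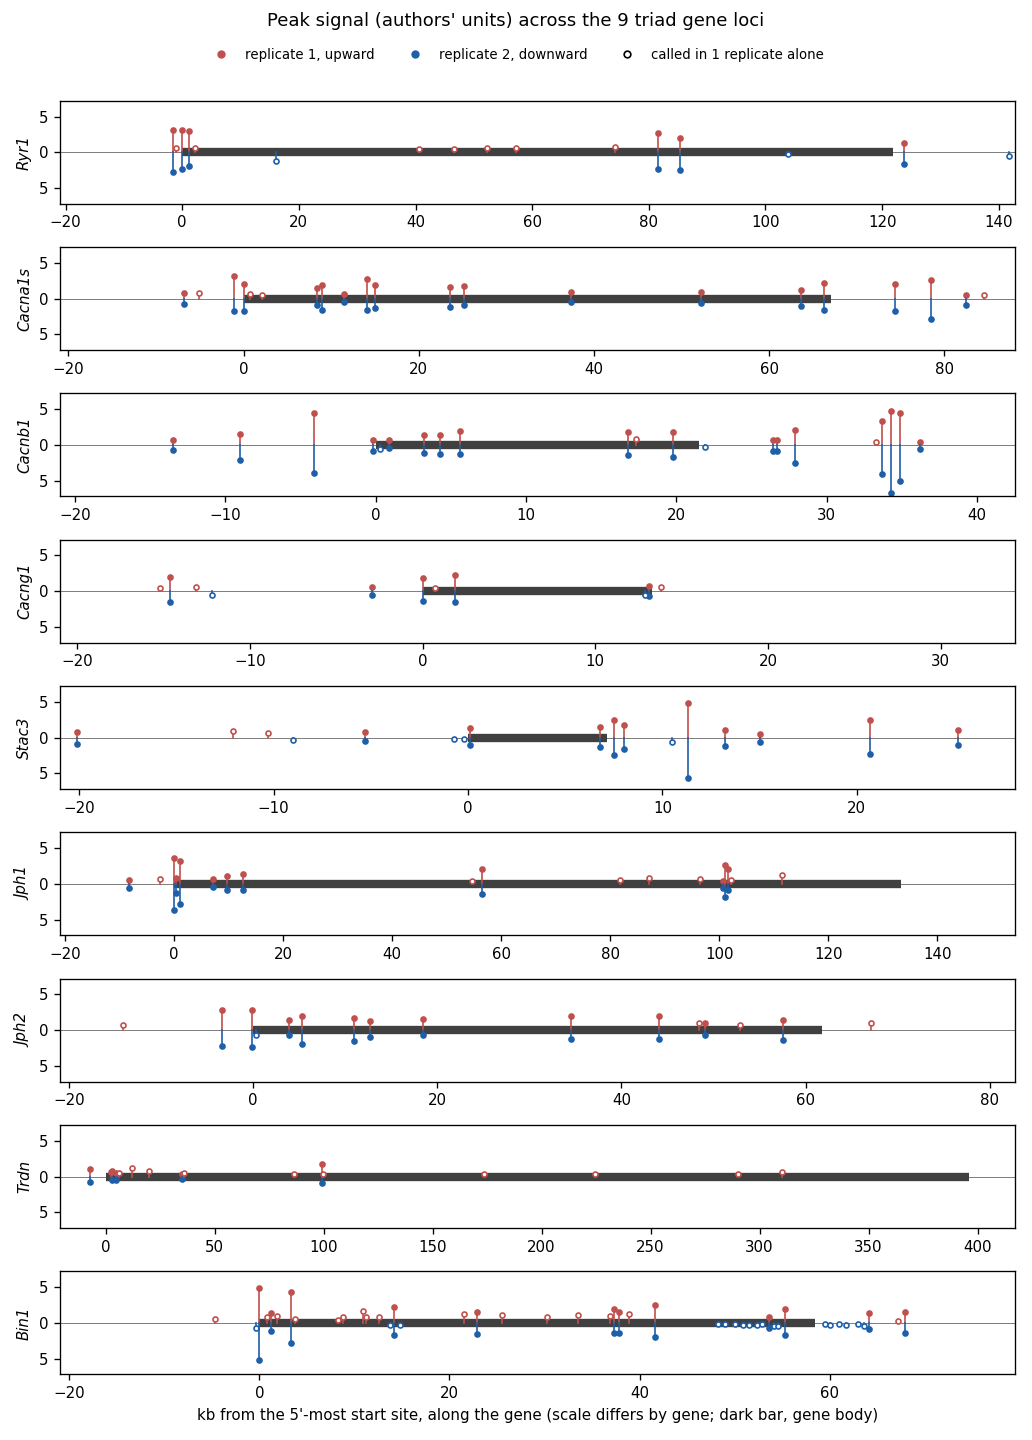
Signal of every peak region in the 9 loci (vertical axis, authors' units; replicate 1 upward, replicate 2 downward) by distance from the 5′-most start site in kb, with the gene body as a dark bar; open circles were called in 1 replicate alone. Ryr1 is open at its 5′ end and at introns 84 and 87, Cacnb1 and Stac3 have their tallest peaks outside the gene body, Trdn has few and mostly weak peaks for its length, and Bin1 ends in a run of weak regions of replicate 2.

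Together the 9 loci held 156 peaks in replicate 1 and 133 in replicate 2, which merged into 182 regions, 95 of them called in both, 57 in replicate 1 alone and 30 in replicate 2 alone. Peak density was 1.69 and 1.31 per 10 kb at the median of the 9 genes, against 0.821 and 0.579 over all genes, and it ranged widely: Trdn had 0.390 and 0.138, Ryr1 0.865 and 0.618, Bin1 2.94 and 3.65. Of the locus peaks, 62.8 percent in replicate 1 and 72.9 percent in replicate 2 were called in the other replicate, against 58.4 and 83.6 percent of all peaks. The shortfall in replicate 2 was largest at Bin1, where 12 of 36 peaks were shared, and was not common to all loci. Shared peaks of replicate 2 were 7 of 10 at Ryr1, 5 of 7 at Cacng1 and 11 of 15 at Stac3. They were 17 of 19 at Cacnb1, 11 of 12 at Jph2, 17 of 17 at Cacna1s, 11 of 11 at Jph1 and 6 of 6 at Trdn. The loci held 448 and 330 footprints, and 93.6 percent of locus peaks in replicate 1 and 85.0 percent in replicate 2 had at least 1, against 83.1 and 82.1 percent of all peaks.

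Peaks at the 3′ end recurred. In 5 of the 9 genes (Cacna1s, Cacnb1, Cacng1, Stac3 and Jph1) a region called in both replicates overlapped the last exon with no start site within 1 kb, which held for 6.60 percent of the 20431 genes with more than 1 exon. This count was made after the regions had been seen, and it takes no account of exon length or of how active a gene is in muscle. The region in the last exon of Cacnb1 has a CTCF match inside footprints of both replicates, as do regions in exon 14 of Bin1, intron 40 of Cacna1s and intron 4 of Jph2. Over all 95 shared regions, 8 hold a CTCF match and 7 of these have it wholly inside footprints of both replicates. That is 7.37 percent of the triad regions, beside 6.39 percent of all shared regions.

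Motifs were searched on both strands, overlaps allowed: the myogenic E-box CAGCTG, a second E-box spelled CAGGTG, MCAT as CATTCC, MEF3 as TCAGGTT, SP/KLF as GGGCGG, ETS as CCGGAA, AP-1 as TGACTCA or the form TGAGTCA, and MEF2, CArG and CTCF by their consensus. By sequence alone, 15.6 percent of the promoter windows of all genes hold the myogenic E-box, 43.8 percent SP/KLF, 13.3 percent MCAT, 3.99 percent MEF3 and 2.86 percent MEF2. MEF2 factors are transcription factors that act with the MyoD family in muscle. In triad peaks more than 1 kb from a start site, MEF2 had the largest ratio to its share elsewhere, though not the largest difference in percentage points in replicate 2: 10.3 percent in replicate 1 (13 of 126, exact 95 percent interval 5.61 to 17.0) and 5.88 percent in replicate 2 (6 of 102, 2.19 to 12.4), against 3.32 and 2.11 percent of all such peaks. The 6 peaks of replicate 2 lay in regions also called in replicate 1, so the 2 shares are not independent. These regions were in the Jph2 (3), Jph1 (2) and Cacnb1 (1) loci alone. CATTCC had 15.9 and 16.7 percent, against 12.8 and 11.9 percent, and CAGCTG had 20.6 and 22.5 percent, against 20.9 and 21.1 percent. The intervals of CATTCC (9.97 to 23.4 and 10.0 to 25.3) and of CAGCTG hold these background shares in both replicates. A higher share was not limited to muscle motifs. SP/KLF had 13.5 percent in replicate 1 (8.06 to 20.7) and 12.75 percent in replicate 2 (6.96 to 20.8), against 7.48 and 9.57 percent. AP-1 had 6.35 and 8.82 percent, against 8.03 and 7.08 percent, and ETS had 3.97 and 4.90 percent, against 3.83 and 4.37 percent. At least 1 of 5 muscle motifs (CAGCTG, MEF2, CATTCC, CArG or MEF3) was present in 40.5 and 40.2 percent, against 35.4 and 33.8 percent of all such peaks. The intervals, 31.8 to 49.6 and 30.6 to 50.4, hold those background shares. In triad footprints the share was 6.47 percent (4.4 to 9.2) and 4.85 percent (2.8 to 7.8). All footprints had 3.98 and 3.68 percent, the second of which lies inside its interval. In the 22 triad promoter peaks of each replicate CAGCTG was present in 10, or 45.5 percent (24.4 to 67.8), and MEF2 in none. Over all promoter peaks CAGCTG was present in 15.6 percent in replicate 1 and 15.7 percent in replicate 2, and MEF2 in 1.38 and 0.971 percent, so none in 22 is near the background. Peaks of 1 locus are not independent and the intervals cover counting error only.

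**Figure D3:**
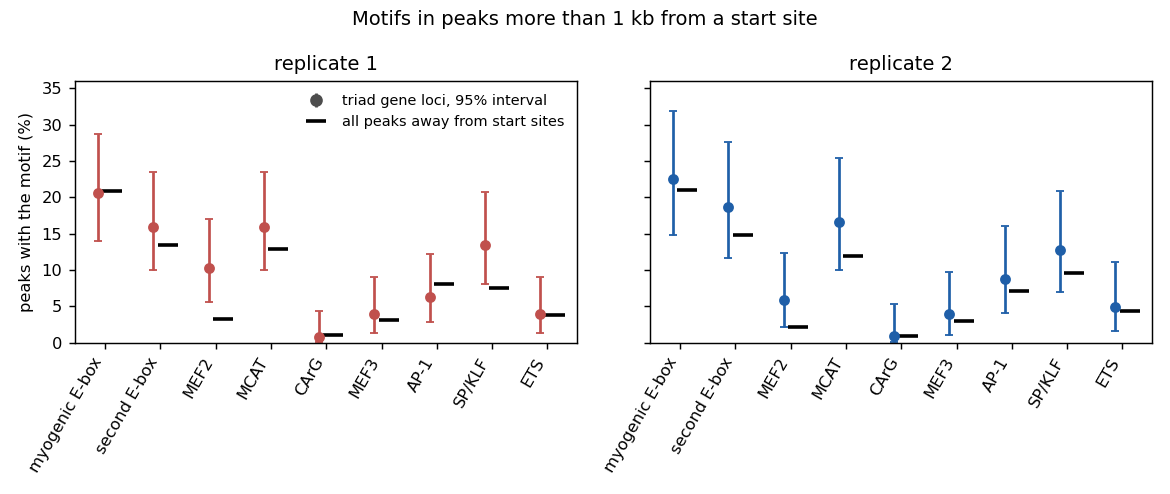
Percent of peaks more than 1 kb from a start site that hold each motif, in triad gene loci (points, with exact 95 percent intervals for counting error) and in all such peaks (dashes), by replicate; the second E-box is CAGGTG. MEF2 is at 10.3 and 5.88 percent in triad loci, with both dashes below the intervals, and CAGCTG is level with its dashes. The MEF2 matches of replicate 2 lie in the Jph2, Jph1 and Cacnb1 loci alone, in regions also called in replicate 1. SP/KLF, not a muscle motif, also has its dash below the interval in replicate 1.

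Signal was not shifted alike in all parts of a locus when the replicates were set against each other. Because each list is scaled on its own, the log2 ratio of replicate 1 over replicate 2 was taken relative to its median over all 74212 shared regions. Triad promoters, exons and introns were above that median in 53 of 63 shared regions, or 84.1 percent, with a median of 0.37, and introns alone in 32 of 37 with a median of 0.46. Regions downstream of the genes were above it in 5 of 14, with a median of -0.24, and promoters of neighbouring genes in 2 of 7, with -0.24. Upstream regions were above it in 6 of 11, with a median of 0.14. The count for neighbouring promoters is near that of promoters in general: 3905 of 13624 genes were above 0 by their strongest promoter peak. No share of all genes is given for pooled promoters, exons and introns, so 53 of 63 is set against the all-region median alone. Over a whole locus the shift was smaller: 66 of the 95 shared regions, or 69.5 percent, were above, with a median of 0.20. Of the triad regions away from start sites 52 of 72, or 72.2 percent, were above with a median of 0.20, against 57.8 percent of all such shared regions, with a median of 0.08. By gene, Cacna1s had 14 of 17 and Jph2 10 of 11 above, while Cacnb1, with its many neighbours, had 7 of 17.

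Marker promoters differed in the same ratio. By the strongest promoter peak, the triad genes had a median relative log2 ratio of 0.28 (7 of 9 above 0, from -0.12 to 0.55), against -0.12 over all 13624 genes open in both replicates, of which 3905 were above 0. Promoters as a class thus lay below 0, and the marker values are to be read against that. The fibre markers had 0.31 (9 of 10 above 0, from -0.11 to 0.85). Endothelial markers had -0.60 (none of 4 above 0), macrophage markers -0.42 (none of 2), neuronal markers -0.41 (none of 3) and fibroblast markers -0.03 (2 of 5); smooth muscle markers had 0.17 (2 of 3) and heart markers 0.29 (2 of 2). Of the macrophage list, Cd68 and Adgre1 had a promoter peak in both replicates and Csf1r and Ptprc in neither; of the neuronal list, Snap25, Rbfox3 and Stmn2 had one in both and Neurod6 in neither. The part of cell makeup in the ratio was not tested.

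**Figure D4:**
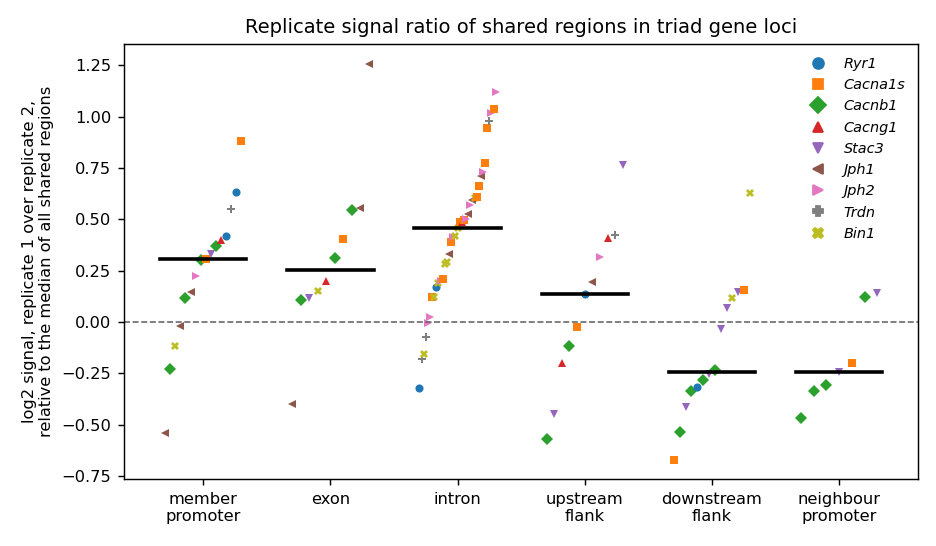
Log2 signal of replicate 1 over replicate 2 for each region called in both, relative to the median of all shared regions (dashed line at 0), by place in the triad gene loci; 1 symbol per gene, black bars are medians. Introns (32 of 37) and exons lie mostly above the line, and downstream flanks and neighbouring promoters mostly below it. Most promoters of all genes also lie below 0.

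The triad genes have relatives, several of which serve other tissues. Of 22 paralogs, 14 had a promoter peak in both replicates and 6 in neither. Of all 21829 protein-coding genes, 13624, or 62.4 percent, had one in both and 7242 in neither. The count of paralogs open in both was thus near the share of all genes. The median signal of the open paralogs was 0.619 in replicate 1 and 0.772 in replicate 2, against 2.10 and 1.71 for the triad genes. Ryr2, the release channel of the heart, had 0.574 and 0.475, below Ryr1 in both replicates, and Ryr3 had no promoter peak. Of the other pore subunits Cacna1c, the heart and smooth muscle form, had 0.619 and 0.766, while Cacna1d and Cacna1f had none. Jph3, of the brain, had none and Jph4 had 0.569 and 0.772.

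Not every relative was weaker. Cacng2, known from brain, had 3.60 in both replicates, above Cacng1. Cacnb3 had 1.46 and 1.60, as against 1.43 and 1.27 for Cacnb1, and Stac2 had 1.66 and 1.69, as against 1.40 and 1.10 for Stac3. Asph, whose gene also makes the triadin relative junctin, had 6.11 and 7.08. Cacng2, Stac2 and Asph have CpG-rich promoters and Cacnb3 a CpG-poor one, and open chromatin at a start site is no measure of expression.

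Other genes of the triad and the calcium store were open throughout. All 16 of a list that spans the alpha-2-delta subunit (Cacna2d1), calcium buffers and store proteins (Casq1, Srl, Hrc, Jsrp1, Tmem38a, Sypl2), tubule and membrane repair genes (Mtm1, Speg, Cav3, Dysf, Trim72), the Ryr1 regulator Fkbp1a and store-operated entry (Stim1, Orai1), with Asph, had a promoter peak in both replicates. So did 62.4 percent of all protein-coding genes, 93.2 percent of the CpG-rich ones and 37.2 percent of the CpG-poor ones. Cacna2d1, Asph, Sypl2, Fkbp1a, Stim1 and Orai1 have CpG-rich promoters, and the rest of the list CpG-poor ones. The median signal of the 16 genes was 2.86 in replicate 1 and 2.13 in replicate 2. Tmem38a, a cation channel of the store, had 9.93 and 10.3, above all 9 members, and Casq1, the calcium buffer of fast fibres, had 3.86 and 2.14.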

How the data were processed

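DNase-seq was measured in 2 samples of 1 group. The authors deposited, per sample, an inclusive and a strict peak list, a list of accessible sites and a list of footprints, on mm10 per the labels. Column 7 of the deposited peak lists is the authors' signal per peak; its scale, the read depth, the aligner and the peak caller are not given in the sources used here. In the authors' deposited site and footprint files the score column is a p-value type value, a false discovery rate; it is a constant 0.01 for footprints.

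Peaks of the inclusive lists were joined to start sites of protein-coding transcripts (GENCODE M21, 1 record per symbol). A promoter peak lay within 1000 bp of a start site. Overlapping peaks of the replicates were merged into regions, and shared ones overlap by at least 1 bp. CpG-rich means an observed over expected CpG ratio of at least 0.6 and at least 50 percent GC within 500 bp of the 5′-most start. Footprints were widened by 5 bp on each side for motif shares, and not widened where a match is called wholly inside. Sequence came from the RefSeq record of GRCm38.p6. Named genes are the 9 members, their strongest regions, and neighbours whose start site lies within 1 kb of one of the 3 strongest regions of a locus. Members and lists were chosen with earlier results of these data known; the CTCF motif, the CpG split and the last-exon count were added after values were seen. Sequence of Jph1 is not reported here. Interval and motif code was tested on simulated data. Python 3.11.15, numpy 2.4.6 and matplotlib 3.10.9 were used. Alternatives were other windows, flanks, the strict list, equal peak numbers, the stronger 50 percent of peaks, motif windows and single replicates.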

Additional observations from a re-analysis of the deposited data

How the results depend on the processing

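No paired analysis was possible because both samples belong to a single group. The number of triad genes with a promoter peak in both replicates, 9, was 7 with the strict list, 8 with the stronger 50 percent of peaks, 8 with a single start site per gene, and 9 with the other settings. Of all genes, 57.7 percent were open with the strict list, 55.5 percent with the stronger peaks and 59.1 percent with the single start site. The median promoter percentile, the counts of peaks and footprints over all loci, and the share of peaks with a footprint moved by less than the spread between replicates or by under 1.5 times. The median density over both replicates, 1.50 peaks per 10 kb, became 1.82 with flanks of 5 kb, 1.17 with 50 kb, 1.03 with the strict list and 1.13 with the stronger 50 percent of peaks. The median of 14.5 peaks per locus became 22 with flanks of 50 kb and 9.5 with the strict list. The share of locus peaks called in both replicates, 67.9 percent, became 80.0 percent with the stronger 50 percent of peaks. The share of distal peaks with a muscle motif, 40.3 percent over both replicates, became 44.1 percent with flanks of 5 kb and 34.1 percent in the central 150 bp of a peak. That of footprints, 5.66 percent, became 2.02 percent without widening. These altered shares are of the triad loci alone, and the shares of all peaks and footprints given above are at the main settings. The 2 cannot be compared. The median replicate ratio over the 95 shared regions, 0.20 on the log2 scale, lay between 0.16 and 0.20 with the strict list, equal numbers of top peaks and the stronger 50 percent, 3 settings chosen after the data were seen. Of the values for single genes, 58 moved little and 14 moved; Trdn falls to 6 peaks without replicate 1, and Stac3 has 3 once peaks nearer to other genes are left out. With 2 samples of 1 donor label, no depth and no alleles, peaks called in 1 replicate alone had no second sample behind them.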
